A study of Mus musculus with 3 samples.

Results

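Milk fat is made and packaged by the secretory cells of the mammary gland, and 10 genes of that process were followed here through 3 mammary tumours, 4 genes of the milk fat globule (Btn1a1, Xdh, Plin2 and Mfge8) and 6 of fatty acid synthesis (Thrsp, Fasn, Acaca, Acly, Scd1 and Scd2). The members were every probe set whose platform annotation named exactly 1 of these genes, which gave 20 probe sets for the 10 genes, out of 22626 probe sets and 12393 named genes. Of these genes 5 had 1 probe set and 5 had several. The tumours came from female NMRI mice carrying the transgene WAP-SVT/t, line 8 in the design text, in which the promoter of the whey acidic protein gene drives the SV40 T and t antigens in mammary epithelial cells. Each tumour was measured on 1 array, all 3 tumours form 1 group without normal gland beside them, and no source states how old the mice were. Tumours 1 and 2 share the first number of their titles, whose meaning is not stated, so they may not be independent. The epithelial keratin genes Krt8 and Krt18 had intensities of at least 4770 and 6145 in each array.

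In the lactating gland, fatty acids are built in the cytosol of the secretory cell. ATP citrate lyase (Acly) supplies acetyl-CoA, acetyl-CoA carboxylase (Acaca) turns it into malonyl-CoA, fatty acid synthase (Fasn) joins these into saturated chains, and stearoyl-CoA desaturases (Scd1, Scd2) insert a double bond. Thrsp, also called Spot 14, is a nuclear and cytosolic protein linked to lipogenesis in fat, liver and mammary gland. The chains are stored as triglyceride in droplets coated by perilipin 2 (Plin2), which leave the cell wrapped in apical membrane with the help of butyrophilin (Btn1a1) and xanthine oxidoreductase (Xdh). Mfge8, or lactadherin, is a protein of the globule membrane that also bridges dying cells to phagocytes. Adipocytes share most of the synthesis enzymes, and several of these proteins occur in macrophages.

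Levels are log2(intensity + 50) after the arrays were quantile normalized, intensities are given as deposited, and fold differences refer to the log2 scale, which understates those of dim probe sets. No test is possible with 1 array per tumour and 1 group. A difference of at least 2-fold is used to count, and the same count over all probe sets is given beside it. Between highest and lowest tumour, 10 of the 20 member probe sets differed at least 2-fold, against 17.0% of all probe sets. Among all probe sets at or above the median level (an intensity of 119) that share was 26.9%, and 15 of the 20 member probe sets were at or above it. The median range of the 20 was 1.01 (log2), against 0.48 over all probe sets. With the brightest probe set of each gene, 6 of the 10 genes differed at least 2-fold (Btn1a1, Xdh, Plin2, Thrsp, Fasn and Scd1), against 16.9% of all genes. Among genes at or above the median level it was 6 of 9 members, against 1722 of all 6951. Btn1a1 is among these 6, and its mean reached that level only through tumour 1, so its wide range came with the selection. Just inside the 2-fold limit lay the Scd1 probe set with a range of 1.06, and just outside lay Mfge8 with 0.96.

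**Figure D1:**
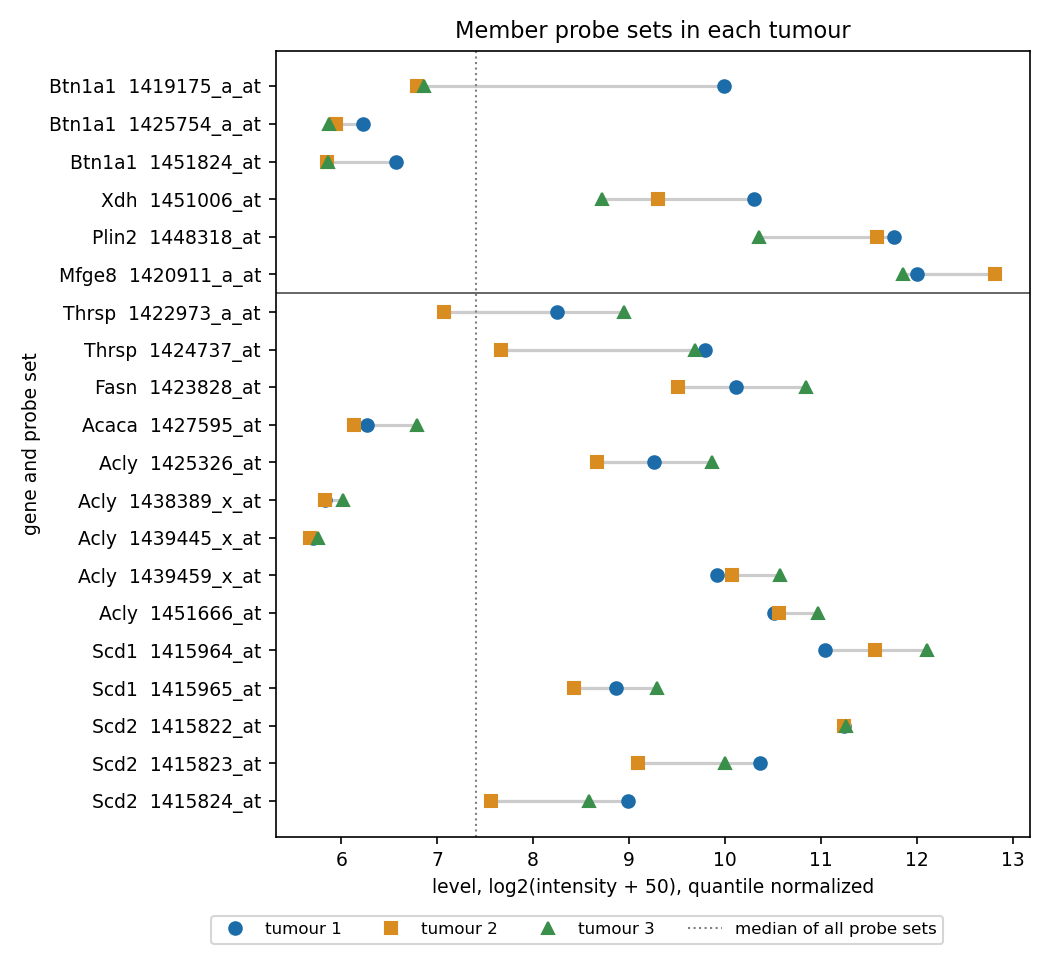
Level of each of the 20 member probe sets in tumours 1, 2 and 3, as log2(intensity + 50) after quantile normalization, with milk fat globule genes above the line and lipogenesis genes below it. Each symbol is 1 array, and the dotted line is the median of all probe sets (7.40); tumour 1 lies to the right for Btn1a1 and Xdh, and tumour 3 for Fasn, Acly and Scd1.

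The 2 groups of genes differed in which tumour was highest. With the brightest probe set of each gene, 3 of the 4 milk fat globule genes had their highest level in tumour 1, and 3 had their lowest in tumour 3. Of the 6 lipogenesis genes, 5 had their highest level in tumour 3, and for 0 it was the lowest tumour. Of these 5, Scd2 was level in the probe set counted, highest by 0.02 (log2), and its other probe sets were highest in tumour 1. Over all 12393 genes 29.6% were highest in tumour 1, while 32.4% had tumour 3 as the highest and 40.4% as the lowest. The median deviation from each gene's mean was 0.70, 0.11 and -0.80 in tumours 1, 2 and 3 for the globule genes, and -0.09, -0.19 and 0.46 for the lipogenesis genes. Those signs held with arrays scaled as deposited, on their medians or on the epithelial list described further on.

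Counted by pairs of tumours, 6 member probe sets were at least 2-fold above tumour 2 in tumour 1 (2.44% of all probe sets), 2 of them for Thrsp, 2 for Scd2 and 1 each for Btn1a1 and Xdh. In the other direction the count was 0 (2.52%). When arrays were centred on 8 epithelial genes, 3 probe sets in place of 6 were at least 2-fold above tumour 2 in tumour 1. Those genes differed among themselves. On the main scale, tumour 1 minus tumour 2 (log2) was 1.44 for Cldn3, 1.01 for Krt19, 0.84 for Cldn7 and 0.01 for Elf3. It was -0.04 for Cdh1, -0.10 for Krt18, -0.11 for Krt8 and -0.62 for Epcam, so that scaling depends on the genes chosen. Tumour 1 was at least 2-fold above tumour 3 for 3 probe sets (4.55%), those of Btn1a1, Xdh and Plin2, and tumour 3 above tumour 1 for 1 (4.61%), that of Scd1. Tumour 3 was at least 2-fold above tumour 2 for 5 (5.86%), of Thrsp, Fasn, Acly and Scd2, and tumour 2 above tumour 3 for 1 (5.52%), that of Plin2. The comparisons share tumours, so their counts are not independent.

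**Figure D2:**
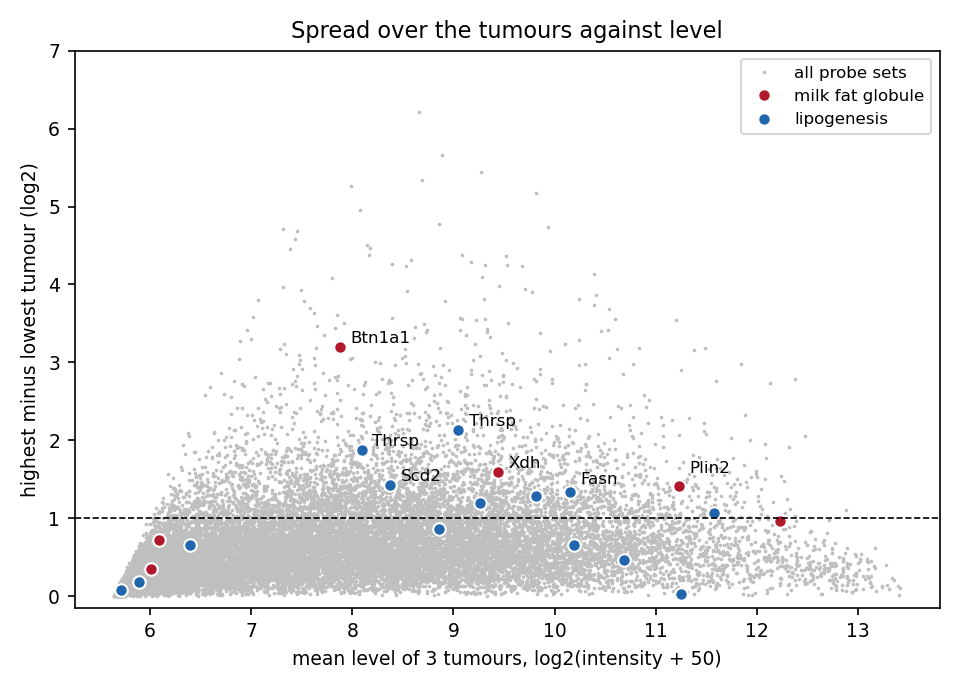
Difference between highest and lowest tumour (log2) against the mean level of the 3 tumours, for all probe sets (grey) and the member probe sets in colour; the dashed line marks 2-fold. Btn1a1 stands highest among the members at 3.20, and 10 of the 20 members lie above the line.

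Among the globule genes Btn1a1, which encodes butyrophilin, a membrane protein of the immunoglobulin superfamily, differed most. The intensity of its brightest probe set (1419175_a_at) read 934, 63 and 68 in tumours 1, 2 and 3. Tumour 1 stood alone, 8.69-fold above the next tumour on the log2(intensity + 50) scale, and the other two differed by 0.08 (log2). Tumours 2 and 3 lay below the median level of all probe sets, so the probe set reached that level on average only through tumour 1. The other probe sets of the gene were dim, at 42, 8 and 8 (1451824_at) and at 23, 12 and 9 (1425754_a_at). Both were also brightest in tumour 1, with ranges of 0.72 and 0.35 (log2), so the 2-fold difference rested on 1 suffixed probe set, whose ID carries a letter because its probes can match several transcripts. With an offset of 16 in place of 50, the first of these dim probe sets was 1.37 (log2) higher in tumour 1 than in tumour 2.

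Xdh, which encodes the enzyme that binds butyrophilin on the globule membrane and also degrades purines, had intensities of 1169, 602 and 364 in tumours 1, 2 and 3. The levels stepped down from 10.30 to 9.30 and 8.71, with no close pair among the tumours, and tumour 1 was 3.01-fold above tumour 3. Its excess over tumour 2 was 2.01-fold, and 0.90 (log2), below the 2-fold limit, with the intensities as deposited.

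Plin2, the coat of cytosolic lipid droplets, had intensities of 3368, 2927 and 1294. Here tumour 3 stood apart, 2.35-fold below the next tumour, and tumours 1 and 2 differed by 0.18 (log2). Their order turned when arrays were centred on the epithelial list (-0.11 for tumour 1 minus tumour 2). Mfge8 had intensities of 3975, 6796 and 3924 and was the globule gene highest in tumour 2, 1.76-fold above the next. Tumours 1 and 3 lay close together for Mfge8, 0.14 (log2) apart, and their order turned with the epithelial scaling. The mean level of Mfge8 was 12.23 ± 0.52 (SD, n = 3) and that of Plin2 11.23 ± 0.77.

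The lipogenesis genes were led in spread by Thrsp. Its brighter probe set (1424737_at) had intensities of 814, 159 and 774, and the other (1422973_a_at) 249, 88 and 439. Tumour 2 was lowest in both, by 4.06-fold and 2.26-fold against the next tumour. The highest tumour differed between them, tumour 1 by 0.11 (log2) in the brighter one and tumour 3 by 0.70 in the other. With the epithelial scaling tumour 3 was the higher in the brighter one too, by 0.15.

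Fasn, the synthase itself, had intensities of 1019, 703 and 1858, and its levels were 10.11, 9.51 and 10.84. Tumour 3 was highest and tumour 2 lowest, 2.52-fold apart, with tumour 1 between them and 1.66-fold below tumour 3. Acly, which feeds the synthase through citrate, was measured by 5 probe sets, all of them highest in tumour 3. Its brightest probe set (1451666_at) had intensities of 1361, 1463 and 2059, a range of 0.46 (log2), while 1425326_at had 547, 373 and 894, a range of 1.19. A further probe set (1439459_x_at) had 888, 1036 and 1524, and the 2 remaining ones had at most 15. The 3 brighter probe sets of Acly therefore shared the highest tumour and disagreed on the lowest. Acaca had a single dim probe set, at 25, 21 and 62, which was below the median level in each tumour. Its intensity was highest in tumour 3 and the range was 0.65 (log2), a value that an offset of 50 holds down at such intensities. With an offset of 16 its tumour 3 minus tumour 2 difference was 1.08.

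The desaturase genes were each measured by several probe sets. Scd1 had intensities of 1999, 2897 and 4686 (1415964_at), which placed tumour 3 2.09-fold above tumour 1, with tumour 2 between them. Its dimmer probe set (1415965_at) read 404, 306 and 568, again highest in tumour 3 but lowest in tumour 2, with a range of 0.87 (log2). Scd2 was nearly level in its brightest probe set (1415822_at), at 2270, 2323 and 2563, or 11.25 ± 0.01 (SD, n = 3) after normalization. The other 2 probe sets of Scd2, which list the same sequence accession, were lowest in tumour 2. They read 1231, 515 and 998 (1415823_at) and 443, 145 and 325 (1415824_at), ranges of 1.28 and 1.43 (log2) with tumour 1 highest. The brightest probe set of Scd2 thus did not show the drop in tumour 2 that both others showed, and with the mean of its probe sets tumour 1 was highest (10.20) and tumour 2 lowest (9.30).

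Because all probe sets of Thrsp and Fasn were lowest in tumour 2 and at least 2-fold below the highest tumour, their promoters are shown, with that of Plin2, which was lowest in tumour 3, for contrast. Promoter windows of RefSeq (GRCm38.p6) were at hand for 6 of the 10 genes. Each run below is the 250 bases before the gene's annotated start, 5′ to 3′ on the minus strand. Capitals mark the NF-Y box, CCAAT or its reverse complement.

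Fasn: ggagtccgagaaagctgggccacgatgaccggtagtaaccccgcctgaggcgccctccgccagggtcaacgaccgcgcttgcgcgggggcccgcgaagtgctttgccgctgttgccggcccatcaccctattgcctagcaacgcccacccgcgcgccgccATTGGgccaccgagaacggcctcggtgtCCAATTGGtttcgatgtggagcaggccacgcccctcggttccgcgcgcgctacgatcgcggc

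Thrsp: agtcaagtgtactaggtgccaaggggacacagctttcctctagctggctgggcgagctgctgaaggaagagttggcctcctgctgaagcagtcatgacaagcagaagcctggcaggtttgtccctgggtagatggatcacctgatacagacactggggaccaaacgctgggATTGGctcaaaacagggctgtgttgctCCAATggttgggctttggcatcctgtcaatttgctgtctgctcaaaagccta

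Plin2: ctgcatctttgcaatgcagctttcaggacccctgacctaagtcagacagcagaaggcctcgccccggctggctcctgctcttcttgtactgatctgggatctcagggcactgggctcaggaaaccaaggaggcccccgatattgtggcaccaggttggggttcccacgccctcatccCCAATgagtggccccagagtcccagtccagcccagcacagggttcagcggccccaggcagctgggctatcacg

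The Fasn window is chr11:120824548-120824797, that of Thrsp chr7:97417551-97417800 and that of Plin2 chr4:86670060-86670309. The window of Fasn held 3 matches, which begin at -90, -62 and -59 from the start, the last pair overlapping on opposite strands. That of Thrsp held 2 (-79 and -52) and that of Plin2 held 1 (-73), while those of Mfge8, Acaca and Acly held 0. The windows printed above are thus the ones with a match. Acaca, without a match, was lowest in tumour 2 as well, and Mfge8, without a match, was lowest in tumour 3 like Plin2. Of all 32851 promoter windows 33.8% held at least 1. The E-box CACGTG (6.02% of all windows), the sterol element TCACNCCAC (1.05%) and the STAT site TTCNNNGAA (7.02%), also searched on both strands, were in 0 of the 6 windows. A match is a description of these letters and no sign of binding.

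Around these members, other genes of the pathway did not move as a block. Of 21 further genes of fatty acid synthesis and desaturation on the array, 6 differed at least 2-fold between highest and lowest tumour (against 16.9% of all genes). Tumour 3 was the highest for 3 of the 21 (against 32.4% of all genes) and the lowest for 14 (against 40.4%). Elovl6, which lengthens the products of the synthase, was the widest past the median level. It read 510, 316 and 1635 in tumours 1, 2 and 3, and its second probe set 122, 107 and 523, so tumour 3 was highest and tumour 2 lowest, as for Fasn. Fads3, a desaturase relative, read 137, 246 and 64 and was lowest in tumour 3. Hsd17b12, an elongation enzyme, differed least in its brightest probe set, at 10.65, 10.80 and 10.55 (log2), while its other probe set read 949, 672 and 1151. Me1, malic enzyme, which supplies NADPH, read 1720, 945 and 1267, but 732, 780 and 412 in its other probe set. Mid1ip1, the paralogue of Thrsp, read 577, 645 and 471, and Acss2, an acetyl-CoA synthetase gene, read 56, 184 and 142.

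Among regulators of lipogenesis, 6 of 22 genes differed at least 2-fold (against 16.9% of all genes), and 11 were lowest in tumour 3 (against 40.4% of all genes). Srebf1, the transcription factor that activates Fasn, Acaca, Acly and Scd1, had intensities of 2242, 4289 and 2209, highest in tumour 2 and 2.16-fold above tumour 3. Tumour 2 was therefore the highest for Srebf1 and the lowest for Fasn and Thrsp. Scap, which escorts the Srebf proteins, read 981, 1289 and 481. Usf2, an E-box factor, read 362, 481 and 93 in its brightest probe set, while a second one read 257, 256 and 236. Mlxipl, the carbohydrate-responsive factor, read 124, 97 and 73, and Pparg, the adipocyte factor, 22, 30 and 66, and the mean of each was below the median level. Akt1 differed least past that level, at 10.22, 10.23 and 9.91 (log2) in its brightest probe set, while a second one read 631, 350 and 567, lowest in tumour 2 and 1.82-fold apart.

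For fatty acid uptake and triglyceride synthesis, 3 of 17 genes differed at least 2-fold, a share near the 16.9% of all genes. Lpl, the lipase that frees fatty acids from lipoproteins, read 243, 233 and 939, and 51, 65 and 332 in its other probe set. Fabp5, a fatty acid carrier, read 5619, 2073 and 3401, and 3676, 837 and 1512 in its other one. Acsl5 differed least (9.81, 9.68 and 9.75 on the log2 scale), and Gpam, the first acyltransferase of glycerolipid synthesis, was at 8.54, 8.29 and 8.39 (log2), while its dimmer probe set read 66, 24 and 63, lowest in tumour 2. Dgat1, which makes the final triglyceride, read 633, 484 and 438. Among 16 other genes of the globule and of lipid droplets 8 differed at least 2-fold (against 16.9% of all genes). Muc1, a mucin of the globule membrane, read 1125, 1904 and 56. Folr1, a folate receptor of the globule, read 1097, 452 and 103, so both were lowest in tumour 3 with Xdh and Plin2. Muc15, another mucin of the globule, ran the other way at 244, 133 and 1278. Of the 16 genes 5 were highest and 6 lowest in tumour 3 (against 32.4% and 40.4% of all genes). Rab5a differed least (10.07, 10.35 and 10.22 on the log2 scale). Cidea and Cd36, which occur both in globule-secreting cells and in fat, read 13, 63 and 367 and 66, 38 and 261, highest in tumour 3.

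**Figure D3:**
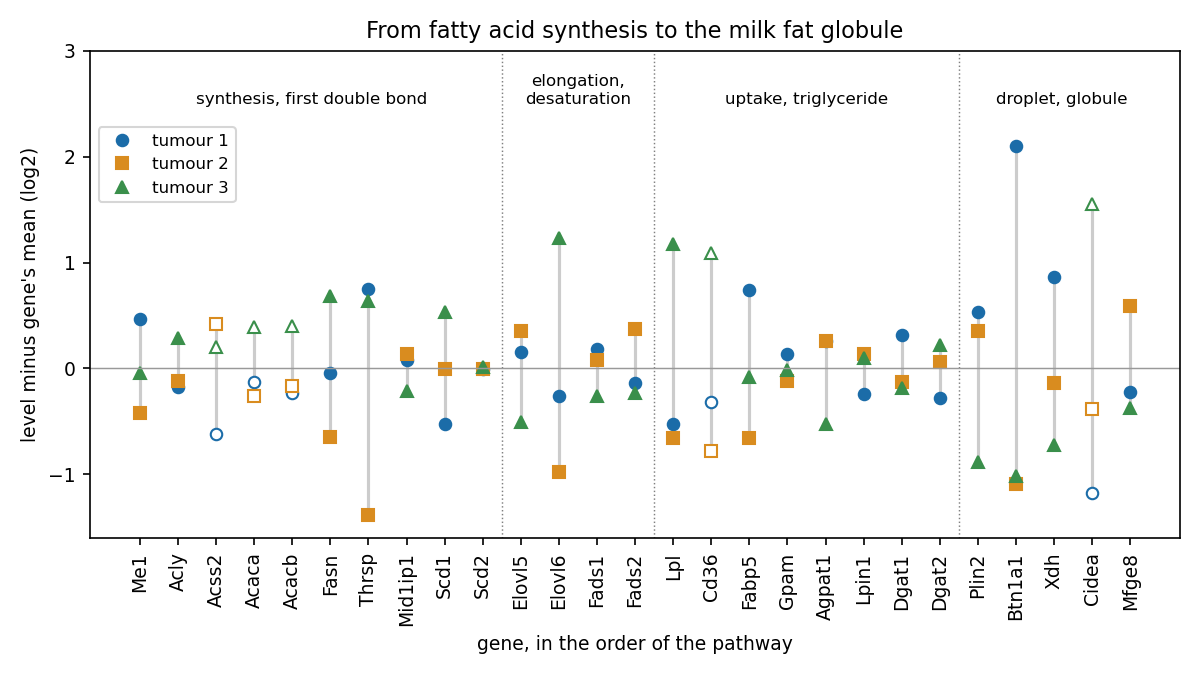
Level of each gene minus its mean over the 3 tumours (log2), for members and pathway genes in the order from synthesis through triglyceride to the globule, 1 symbol per tumour. Open symbols are genes whose mean is below the median level; tumour 3 is highest for Fasn, Scd1 and Elovl6 and lowest for Xdh and Plin2, and tumour 1 stands alone for Btn1a1.

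Markers of other cell types also differed between the tumours, in directions that varied by cell type. In bulk tissue fewer cells of a type and less RNA per cell cannot be told apart. Of 9 adipocyte markers on the array, 8 peaked in tumour 3 (against 32.4% of all genes), and 5 of the 9 had a mean below the median level. The range over the tumours was at least 2-fold for 6 of the 9 (against 16.9% of all genes). The summed intensity of the 9 was 1634, 1670 and 7139 in tumours 1, 2 and 3. Fabp4, a lipid carrier of fat cells, read 424, 304 and 2837 and Car3 319, 550 and 2539, while Pnpla2, a lipase gene, differed least of the brighter ones at 650, 579 and 479. Of the defining markers Adipoq read 66, 94 and 678, and Lep at most 9. Of 5 brown adipocyte markers 4 peaked in tumour 3 (against 32.4% of all genes), with summed intensities of 90, 146 and 1564. All 5 had a mean below the median level, and Ucp1, the uncoupling protein, read 3, 12 and 687. These lists share Cidec, Cidea and Elovl3 with the pathway lists above. The lipogenesis genes Fasn, Acly and Scd1 were highest in the same tumour, and the part of fat in that was not tested. Between tumours 1 and 2 these markers did not move one way in their brightest probe sets. Fabp4 and Retn (64, 28 and 229) were lower in tumour 2 and Car3 was higher. In a further probe set at or above the median level, Car3 was slightly lower in tumour 2 and Fabp4 was nearly level. The rise of Car3 thus rested on its brightest probe set. Pnpla2 made up 650 of the summed 1634 in tumour 1.

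Milk protein genes moved with Btn1a1 in part. Glycam1 read 561, 2 and 18, Lalba 437, 46 and 42 and Wap 88, 19 and 29, all highest in tumour 1, whereas the caseins Csn1s1 (3106, 1700 and 4340) and Csn1s2a (256, 328 and 641) were highest in tumour 3. Csn2 (1158, 1757 and 1719) was lowest in tumour 1. The means of Glycam1, Lalba and Wap were below the median level. The summed intensity of the 8 milk protein genes was 16723, 12828 and 16928, of which Csn3 alone gave 11104, 8964 and 10114. In tumours 1 and 3 those Csn3 values lay close to the array maxima of 11344 and 10789. Its dimmer probe set read 314, 95 and 268, lowest in tumour 2. Epithelial markers summed to 27023, 24336 and 25283, with 2 of 8 differing at least 2-fold (Krt19 and Cldn3), against 16.9% of all genes. Elf3 among these markers was level at 566, 598 and 593. Macrophage markers were lowest in tumour 3 for 9 of 10 genes (against 40.4% of all genes), with summed intensities of 16988, 16025 and 8898, beside the lower Plin2 of that tumour. C1qc read 3022, 2090 and 869, Adgre1 406, 384 and 264, and Cd163 ran the other way at 36, 92 and 927. Fibroblast markers summed to 14060, 15275 and 11066 and endothelial markers to 762, 1046 and 539. Their part in the member differences was not tested.

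**Figure D4:**
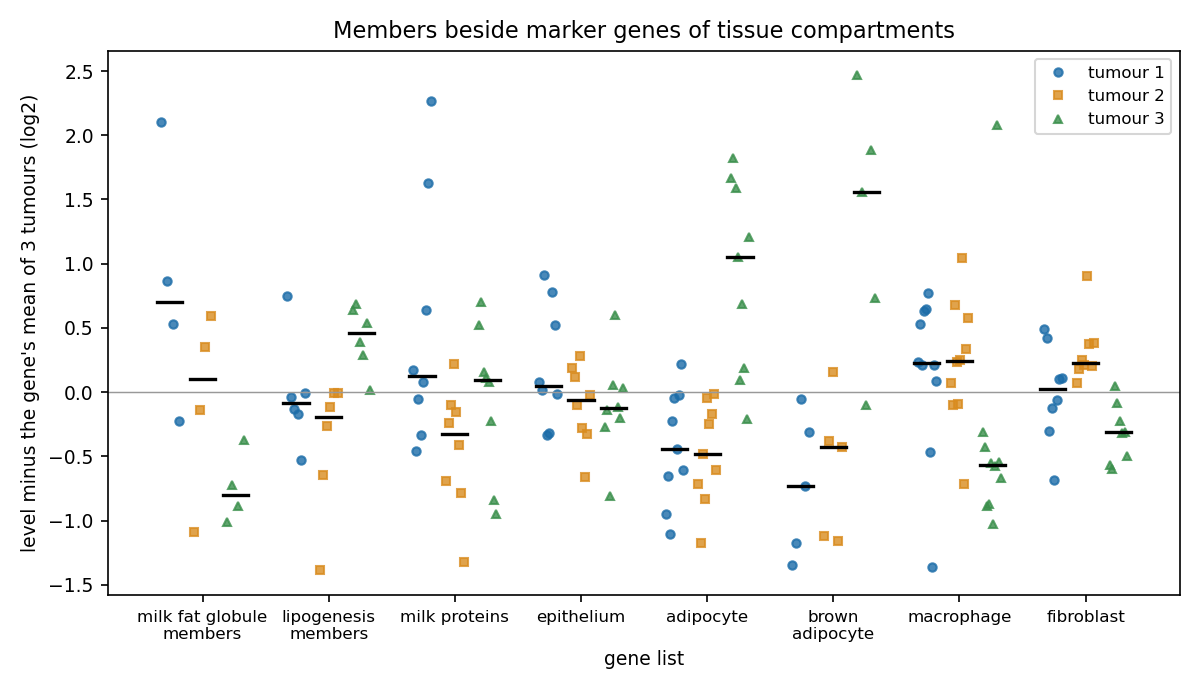
Level of each gene minus its mean over the 3 tumours (log2), for the member genes and for markers of milk secretion, epithelium, fat, macrophages and fibroblasts; each symbol is 1 gene in 1 tumour and the bar is the median of the list. In tumour 3 the median was -0.80 for the globule genes, 0.46 for the lipogenesis genes and 1.05 for adipocyte markers.

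The genes nearest in pattern were taken for the 3 members of widest range, by the Euclidean distance over the 3 tumours between levels from which the gene's own mean had been subtracted, among 6950 genes. For Btn1a1 these were Capn6 (1367, 141 and 185), Slc28a3 (729, 82 and 66) and Igf2 (507, 50 and 38), at distances of 0.36, 0.39 and 0.46. Each was, as the selection requires, several-fold brighter in tumour 1 than in the others. The genes compared were those at or above the median level, which Slc28a3 and Igf2 reached on average only through tumour 1. For Thrsp they were Fcrls (501, 112 and 432), Tomm7 (1497, 457 and 1662) and Mrpl27 (1492, 496 and 1544), at 0.29, 0.31 and 0.42, all lowest in tumour 2. For Xdh they were Pxmp4, Git1 and AW112010, at 0.03, 0.04 and 0.05, all stepping down from tumour 1 to tumour 3. The selection fixed these patterns in advance, and with 3 arrays many genes share such a pattern.

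The arrays were alike in overall brightness, with maximum intensities between 10789 and 11659. The 3′ over 5′ signal of the control for beta-actin, a sign of RNA integrity, was 1.04, 1.21 and 1.26 in tumours 1, 2 and 3, and that for Gapdh was 0.90, 1.21 and 0.81. For the less bright controls of transferrin receptor and pyruvate carboxylase it was 7.63, 4.33 and 2.88 and 4.78, 4.05 and 1.78, and its part in the member differences was not tested.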

How the data were processed

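The values are deposited intensities, whole numbers on a linear scale, 1 for each probe set in each tumour. Per the labels' protocols, biotinylated cRNA was made from total RNA. How the authors summarised, background-corrected and scaled the deposited intensities is not given in the sources used here. After 64 control probe sets were set aside, the arrays were quantile normalized over 22626 probe sets and converted to log2(intensity + 50). Genes came from the platform annotation (20380 probe sets with 1 gene, 691 with several, 1555 unlisted, the last 2 kinds not named). Gene IDs of 20351 matched RefSeq.

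Named genes were all member probe sets, the 2 widest and the 1 narrowest gene past the median level in each of the 4 pathway lists, 13 pathway genes whatever their value (Insig1 was not analysed here), and the 3 nearest patterns of 3 members. Muc15 and the genes named from marker lists were picked after their values were seen. The members and lists were chosen with earlier results of these data known. No test was run, since there is 1 group. The number of arrays limits the precision of every value. The 2-fold counting was tested on simulated data with larger changes in brighter probe sets only, so changes near 2-fold and dim probe sets were not covered. Alternatives covered scaling, offset, low signal, suffixed probe sets and left-out tumours. Python 3.11.15, numpy 2.4.6, pandas 2.3.3, scipy 1.17.1 and matplotlib 3.10.9 were used.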

Additional observations from a re-analysis of the deposited data

How the results depend on the processing

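No paired analysis was possible because the samples form 1 group. Of the counts, median range and tumour orders of the members, 139 of 152 values under the alternatives stayed within 1.5 times the main count, or, for the median range, within the median SD of the member probe sets over the tumours, and no difference past 2-fold changed sign. The exceptions are these. With arrays centred on the epithelial list, which moved the array medians by -0.21, 0.18 and 0.03 (log2), 3 member probe sets in place of 6 were at least 2-fold higher in tumour 1 than in tumour 2, 1 in place of 0 was higher in tumour 2 than in tumour 1 (Mfge8), and 2 in place of 1 were higher in tumour 3 than in tumour 1 (Scd1 and Fasn). Under that scaling 1 globule gene in place of 0 was lowest in tumour 1, 2 in place of 1 were highest in tumour 2, 0 in place of 1 were lowest in tumour 2, and 0 lipogenesis genes in place of 1 were highest in tumour 1. Without suffixed probe sets 0 globule genes in place of 1 were highest in tumour 2, since Mfge8 then had no probe set. With the mean of probe sets, 5 lipogenesis genes in place of 3 were lowest in tumour 2 and 1 in place of 3 in tumour 1. With 1 tumour left out, between 4 and 6 member probe sets in place of 10 differed at least 2-fold (6 without tumour 1, 4 without tumour 2, 5 without tumour 3). The median range was then 0.50 to 0.62 in place of 1.01. It is counted among the 139 because the median SD is a wide tolerance, although it fell by far. Fewer arrays alone can lower both values, and the order of 3 tumours has no value there. Among differences of single probe sets, 32 of 360 moved by more than 1 SD of that probe set over the tumours. That SD grows with the difference being checked, so wide differences could hardly be counted as moved. The excess of Xdh in tumour 1 over tumour 2, for example, fell below the 2-fold limit with the epithelial scaling and was not counted. The remainder is therefore no measure of stability for wide differences. Signal over background could not be judged without detection calls, which limits the dim probe sets of Btn1a1, Acaca and Acly. The scaling, offset and suffix alternatives of the tumour orders were chosen after seeing the data.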
